A study of Mus musculus with 6 samples.

Results

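The S100 calcium-binding protein family was followed through 9 listed genes, S100a8, S100a9, S100a1, S100a13, S100a4, S100a10, S100a11, S100a6 and S100a16, among the 31053 gene identifiers of each count table. Each symbol matched 1 identifier, and all 9 genes had counts in every library. The cells came from the lungs of wild type C57BL6 mouse fetuses at E17. They had been digested, frozen, and cultured on diluted Matrigel, a basement membrane extract, in a medium for blood stem and progenitor cells with thrombopoietin, IL6, SCF, FGF, VEGF and Flt3. The suspension fraction, the cells that floated in the medium, was set against the adherent fraction, which was released from the plate with accutase and sorted for live cells with VE-cadherin, an adhesion protein of endothelium. Each fraction gave 1 droplet library (10x 3' v3) on each of days 4, 5 and 6, so there were 3 suspension and 3 adherent libraries. The fractions therefore differed in sorting and enzyme treatment as well as in attachment, and the effect of the handling cannot be told apart from that of the fraction.

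S100 proteins are small calcium-binding proteins that mostly work as dimers: on binding calcium they expose a surface that grips partner proteins. S100a8 and S100a9 together form calprotectin, a major cytosolic protein of neutrophils that binds zinc and manganese and acts on innate immune receptors once released, while most other members are found in many cell types and act on annexins, the cytoskeleton or calcium channels. Most genes of the family lie in a cluster on 1 chromosome, and in the lung S100a8 and S100a9 are best known from neutrophils and inflammation.

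The upstream sequences of the 3 genes with the largest suspension excess, S100a8, S100a9 and S100a1, are shown because 2 of them share a pattern over the libraries and the third starts back to back with another member. The letters are from the RefSeq promoter table (GRCm38.p6, the same assembly as mm10), written 5′ to 3′ on the gene's strand for S100a8 and S100a9. For S100a8 they cover chr3:90668821-90668977 (plus strand, 157 bases, ending where the GENCODE gene starts), for S100a9 chr3:90695722-90695971 (minus strand, 250 bases), and for S100a1 and S100a13 the 42 bases between their divergent starts, chr3:90514393-90514434, on the plus strand. Capitals mark matches to 2 motifs, GGAAGT (an ETS-type or PU.1-type core, both strands) and TTNNGCAA (a C/EBP-type motif, both strands), which do not overlap each other here.
S100a8 upstream: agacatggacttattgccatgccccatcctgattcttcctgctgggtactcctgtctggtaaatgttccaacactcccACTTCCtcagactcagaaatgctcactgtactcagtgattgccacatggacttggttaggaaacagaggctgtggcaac
S100a9 upstream: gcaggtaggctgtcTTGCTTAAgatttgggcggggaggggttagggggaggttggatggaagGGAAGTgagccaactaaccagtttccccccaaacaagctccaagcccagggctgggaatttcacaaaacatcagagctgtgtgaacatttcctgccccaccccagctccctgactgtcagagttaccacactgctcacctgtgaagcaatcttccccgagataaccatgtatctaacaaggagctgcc
S100a1 to S100a13: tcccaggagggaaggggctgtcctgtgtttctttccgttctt

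Of the 9 members, 8 had a window of 250 bases before to 50 after a start in that table, with 9 windows in all. GGAAGT was found in 6 of the 9 windows, including those of S100a8 and S100a9, and in 23.8% of the 32851 windows of all genes. The windows of S100a1 and S100a13 overlap, and their matches are the same bases, counted once in each. TTNNGCAA was found in 1 member window, that of S100a9, and in 10.8% of all windows. TATAAA on the gene strand, the letters of a TATA box, was found in 3 member windows and in 8.32% of all windows. In S100a8 it began 30 bases and in S100a4 31 bases before the start, and in S100a9 it began at the first base. TGANTCA, an AP-1-type motif read on both strands, was found in 2 member windows, one of S100a16 and that of S100a11, and in 7.81% of all windows. These matches are letters in a window and not measured binding.

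Each library held 36451255 to 57784974 gene counts. Levels are given as CPM, a gene's reads relative to the library total after adjustment by TMM, and a level of 3 counts was worth 0.0594 to 0.0756 CPM. Reads and not molecules were counted, at the 3' ends of transcripts, so levels are compared between libraries and not between genes. Intervals treat each read as independent, so they cover the counting error of reads only and not that of molecules. Each value is a sum over a whole library, in which fewer cells of a type and less RNA per cell cannot be told apart. Nothing in the labels ties the days to separate cultures, and the p-values rest on the spread among these 6 libraries, which may be technical. The first principal component held 86.4% of the variance. Listed markers of endothelium summed to between 6.18 and 9.95 CPM in suspension and to between 539 and 1410 CPM in adherent libraries, and the VE-cadherin gene Cdh5 had at most 0.381 CPM in suspension and at least 79.0 CPM in adherent libraries. Adherent libraries also held fibroblast markers (1468 to 2286 CPM), epithelial markers (303 to 1329 CPM) and monocyte and macrophage markers (2694 to 7016 CPM), so their defining markers were not those of endothelium alone.

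Between the fractions, 4 of the 9 members were higher in suspension (S100a8, S100a9, S100a1 and S100a13), 2 were lower (S100a6 and S100a16) and 3 did not pass (S100a4, S100a10 and S100a11). The test was the quasi-likelihood F test of edgeR, with Benjamini-Hochberg adjusted p-values over 14912 genes at a threshold of 0.05. Of all genes tested, 27.1% were higher and 29.7% lower, so more genes were called than not, and the members' shares are read against that. The members' median log2 ratio of suspension over adherent was 0.38, against a median of 0.00 over all genes. The CPM ranges of the fractions did not overlap for 6 of the 9 members, against 67.8% of all genes. Scaling by library totals without TMM gave 2904 higher and 5555 lower genes in place of 4044 and 4423 and set the median of all genes to -0.24. The log2 ratios below are from the TMM scale.

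**Figure D1:**
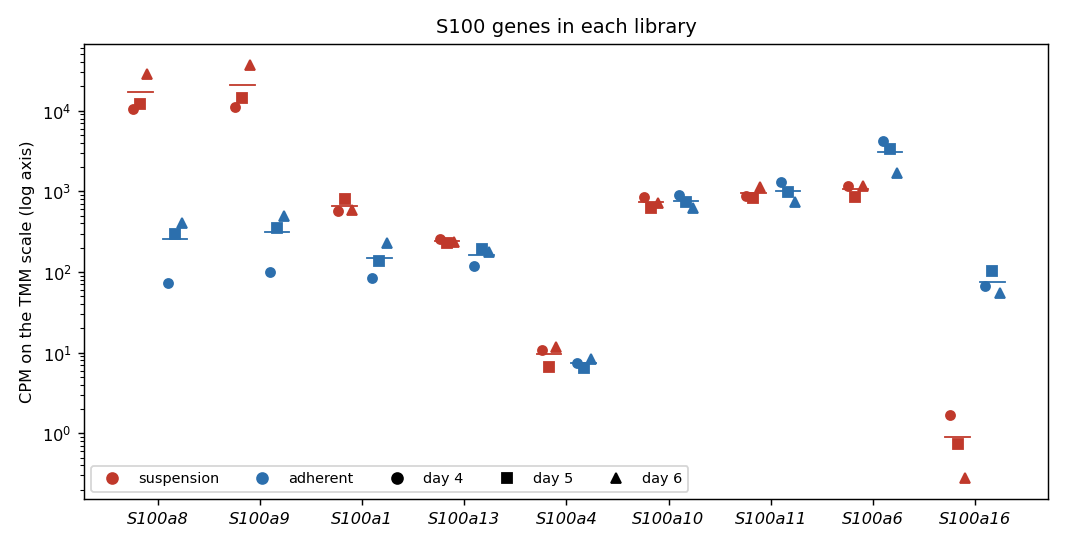
CPM of the 9 S100 genes in each library on a log axis, suspension (red) left of adherent (blue), with a symbol for each day and a line at the mean of the 3 libraries. S100a8 and S100a9 lie between 10546 and 37215 CPM in suspension and at or below 496 CPM in adherent libraries, while S100a16 lies at or below 1.67 CPM in suspension and at or above 54.5 CPM in adherent libraries.

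S100a8 and S100a9 had the highest log2 ratios of the 9 members. S100a8 (ENSMUSG00000056054, mm10 chromosome 3, 90668978 to 90670035, plus strand), whose protein is the smaller subunit of calprotectin, had 10546, 12191 and 28442 CPM in suspension on days 4, 5 and 6, against 73.5, 299 and 402 CPM in adherent libraries. The lowest suspension library was above the highest adherent one, and day 6 was the highest in each fraction. Its mean was 17060 ± 9891 CPM in suspension and 258 ± 168 CPM in adherent libraries (SD, n = 3 each), a 66.1-fold difference of means. The log2 ratio was 6.05 ± 0.82 (approximate SE; edgeR quasi-likelihood with Benjamini-Hochberg adjustment, adjusted p = 0.00159).

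S100a9 (ENSMUSG00000056071, chromosome 3, 90692632 to 90695721, minus strand), the other subunit, had 11244, 14534 and 37215 CPM in suspension and 99.7, 351 and 496 CPM in adherent libraries. Again the fractions did not overlap, and the order of the libraries was that of S100a8. The mean was 20997 ± 14141 CPM in suspension and 316 ± 200.5 CPM in adherent libraries (SD, n = 3 each). The log2 ratio was 6.06 ± 0.84 (edgeR quasi-likelihood with Benjamini-Hochberg adjustment, adjusted p = 0.0017). By day the log2 ratio of suspension over adherent was 7.16, 5.35 and 6.15 for S100a8 and 6.82, 5.37 and 6.23 for S100a9, so the gap was widest on day 4 for both.

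Together the pair took 2.05%, 2.54% and 5.74% of all gene counts in suspension on days 4, 5 and 6, against 0.0193%, 0.0708% and 0.0943% in adherent libraries. The other 7 members took 0.350%, 0.316% and 0.338% in suspension, against 0.751%, 0.603% and 0.373% in adherent libraries. The pair thus made up 85.4% to 94.4% of the members' counts in suspension and 2.51% to 20.2% in adherent libraries. The counts of S100a4 and S100a11, whose levels are uncertain for reasons given with these genes, enter the shares of the other 7 members. No test was run on these shares.

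Within the pair, the ratio of S100a8 to S100a9 counts was below 1 in every library. It was 0.938, 0.839 and 0.764 in suspension and 0.737, 0.852 and 0.810 in adherent libraries, so the fractions overlapped although the levels differed by the folds given above. S100a8 made up 48.4% (48.3 to 48.5, exact Clopper-Pearson 95% interval), 45.6% (45.5 to 45.7) and 43.3% (43.3 to 43.4) of the pair's counts in suspension. In adherent libraries the shares were 42.4% (41.3 to 43.5), 46.0% (45.4 to 46.6) and 44.8% (44.3 to 45.3). In suspension the share was lower on each later day, while adherent libraries had their highest share on day 5.

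Beside the pair, 13 of the 13 listed neutrophil markers were higher in suspension by the same test, against 27.1% of all genes tested, with a median log2 ratio of 5.75. Their summed level was 6542, 9828 and 17534 CPM in suspension, against 148, 333 and 366 CPM in adherent libraries. Not every marker had the pair's order over days: in suspension Elane, Mpo and Prtn3, granule proteins of early neutrophil precursors, had 267, 159 and 771 CPM on day 6, below their day 5 values of 462, 296 and 1318 CPM. Per count of these markers the pair had 3.33, 2.72 and 3.745 counts in suspension and 1.17, 1.95 and 2.46 counts in adherent libraries, so the fractions did not overlap in this ratio. Mmp8, with the lowest log2 ratio of the 13 (2.93), held 43.2, 119 and 147 CPM of the adherent sums. In suspension it held 599, 816 and 940 CPM. The adherent ratios thus rest in large part on 1 marker, and a ratio without Mmp8 was not computed. An excess of the pair over neutrophil markers in general is therefore not shown. None of the 13 markers was at 0 in all libraries of a fraction, though Cxcr2, a chemokine receptor of mature neutrophils, was at 0 on day 4 in the adherent fraction. Monocyte and macrophage markers, some of which mark cells that can also hold S100a8 and S100a9, summed to between 17340 and 19119 CPM in suspension and to between 2694 and 7016 CPM in adherent libraries, and 9 of 12 were higher in suspension. Mast cell markers summed to between 144 and 235 CPM in suspension and to between 13.5 and 179 CPM in adherent libraries (1 of 5 higher), and erythroid markers to between 30.7 and 209 CPM in suspension and to at most 2.27 CPM in adherent libraries (4 of 4 tested higher). The part of these cell types in the pair's difference was not tested.

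**Figure D2:**
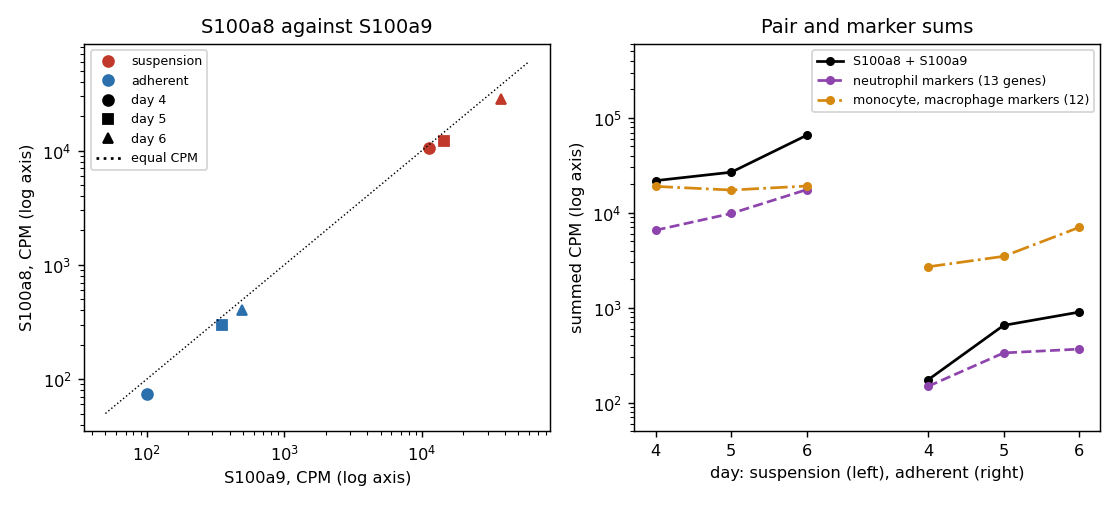
Left, S100a8 against S100a9 in the 6 libraries in CPM on log axes, with a dotted line of equal CPM; right, the summed CPM of the pair and of the listed neutrophil and monocyte and macrophage markers by day, suspension left and adherent right, on a log axis. All 6 libraries lie just below the line of equal CPM. The pair's sum and the neutrophil sum rise over the days in each fraction. The monocyte and macrophage sum rises over the days in adherent libraries only.

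Receptors and downstream genes of S100a8 and S100a9 went in both directions. Tlr4, the toll-like receptor that binds the dimer, had 32.3, 41.8 and 49.0 CPM in suspension and 9.18, 12.2 and 19.9 CPM in adherent libraries, a log2 ratio of 1.58 ± 0.31 (edgeR quasi-likelihood with Benjamini-Hochberg adjustment, adjusted p = 0.00595). Ager, the receptor RAGE, which alveolar epithelium makes in the lung, went the other way, with 6.83, 6.15 and 1.41 CPM in suspension and 94.6, 32.3 and 32.1 CPM in adherent libraries (log2 ratio -3.47 ± 0.73, adjusted p = 0.00754 by the same test). Bsg, which encodes basigin, a receptor for S100a9, had a log2 ratio of -0.81 ± 0.12, with means of 334 CPM in suspension and 586 CPM in adherent libraries. Cd36, a fatty acid transporter that S100a8 and S100a9 bind, had a log2 ratio of 2.32 ± 0.24. Cybb and Ncf1, subunits of the phagocyte NADPH oxidase, to which the dimer passes arachidonic acid, had log2 ratios of 4.08 ± 0.60 and 3.26 ± 0.41. All of these passed the test, which called 27.1% of all genes tested higher and 29.7% lower.

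Of the 24 listed partners and receptors of S100 proteins, 22 were tested, and 8 were higher, 10 lower and 4 not called between the fractions, with a median log2 ratio of -0.02. Of all genes tested, 27.1% were higher and 29.7% lower. Plg and Ryr2 had too few counts to test. The called genes of the list with the largest mean CPM included Anxa1, Bsg, Cybb, Sugt1, Ncf1, Anxa6 and Alcam. Of these, Alcam, an adhesion protein reported to bind S100b, had a log2 ratio of -2.10 ± 0.20, and Anxa6, an annexin bound by several S100 proteins, one of -1.15 ± 0.16.

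S100a1 (ENSMUSG00000044080, chromosome 3, 90511034 to 90514392, minus strand), best known in heart and skeletal muscle as a regulator of the ryanodine receptor and the calcium pump, was also higher in suspension. It had 564, 802 and 592 CPM in suspension and 83.5, 135 and 228 CPM in adherent libraries, with no overlap. The means were 653 ± 130 CPM in suspension and 149 ± 73.0 CPM in adherent libraries (SD, n = 3 each), and the log2 ratio was 2.13 ± 0.38 (edgeR quasi-likelihood with Benjamini-Hochberg adjustment, adjusted p = 0.00395). Its partner Ryr2 had at most 0.378 CPM in any library. The log2 ratio by day was 2.75, 2.57 and 1.38, the smallest on day 6, where the adherent level was highest.

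S100a13 (ENSMUSG00000042312, chromosome 3, 90514435 to 90524581, plus strand) starts 42 bases from S100a1 on the other strand, the stretch printed above. Its protein takes part in the release of FGF1 and IL1α, which lack a signal peptide. It had 253, 228 and 236 CPM in suspension, a narrow range, and 119, 192 and 179 CPM in adherent libraries. The fractions did not overlap, but the gap between the nearest libraries was small. The log2 ratio was 0.55 ± 0.19 (edgeR quasi-likelihood with Benjamini-Hochberg adjustment, adjusted p = 0.0441), and with the collection day as a block it was 0.58 (adjusted p = 0.0601). The call was also lost in each fit without 1 suspension library (adjusted p = 0.108, 0.0904 and 0.0798 without days 4, 5 and 6) and without the adherent library of day 6 (adjusted p = 0.0515), and with library totals in place of TMM the log2 ratio was 0.32 (adjusted p = 0.173).

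Despite the shared start region, the divergent genes kept no fixed ratio. There were 2.22, 3.51 and 2.51 counts of S100a1 per count of S100a13 in suspension and 0.704, 0.703 and 1.27 in adherent libraries, so every suspension library was above every adherent one. The cargo of S100a13 was split. Fgf1 had at most 0.238 CPM in suspension and between 1.07 and 3.25 CPM in adherent libraries (log2 ratio -4.39 ± 0.83), and Il1a had 14.9, 14.4 and 14.5 CPM in suspension and 1.41, 2.09 and 6.15 CPM in adherent libraries (log2 ratio 2.18 ± 0.54). Both passed (edgeR quasi-likelihood with Benjamini-Hochberg adjustment, adjusted p = 0.00502 for Fgf1 and 0.0136 for Il1a). Syt1, a synaptotagmin of the FGF1 release complex, had 0 counts in the suspension libraries and at most 1.06 CPM in adherent ones.

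**Figure D3:**
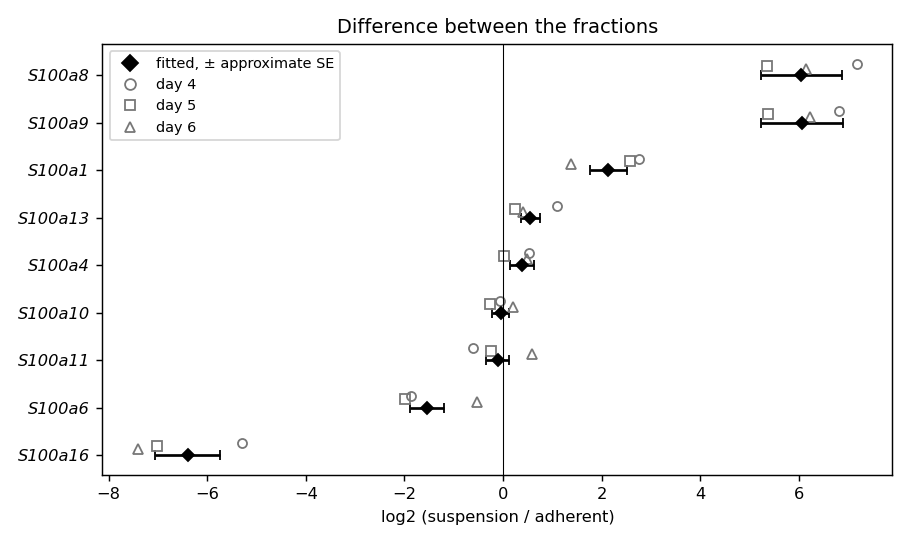
Log2 ratio of suspension over adherent for the 9 S100 genes, with the fitted value and its approximate SE (black diamonds) and the ratio of the libraries of each day (open grey symbols). Zero lies within the day values of S100a10 and S100a11, while the day values of S100a8, S100a9 and S100a1 lie above it and those of S100a6 and S100a16 below it.

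S100a10 and S100a11, which are among the members that bind annexins, did not pass the test between the fractions. S100a10 (ENSMUSG00000041959, chromosome 3, 93555080 to 93564643, plus strand), or p11, has lost calcium binding and forms a complex with annexin A2. It had 852, 618 and 725 CPM in suspension and 896, 747 and 630 CPM in adherent libraries. The ranges overlapped, and the log2 ratio was -0.05 ± 0.18 (edgeR quasi-likelihood with Benjamini-Hochberg adjustment, adjusted p = 0.827). Anxa2 itself had 635, 445 and 529 CPM in suspension and 742, 687 and 462 CPM in adherent libraries, and its log2 ratio of -0.23 ± 0.22 did not pass (adjusted p = 0.395 by the same test). The ratio of S100a10 to Anxa2 counts was 1.34, 1.39 and 1.37 in suspension and 1.21, 1.09 and 1.36 in adherent libraries. Ahnak, a giant scaffold protein that the S100a10 and annexin A2 complex binds, had a log2 ratio of 0.19 ± 0.12 that did not pass, and Plat, tissue plasminogen activator, whose activity the complex promotes at the cell surface, one of -5.71 ± 0.73 that did.

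S100a11 (ENSMUSG00000027907, chromosome 3, 93520488 to 93526287, plus strand) binds annexin A1 and takes part in membrane repair. It had 864, 831 and 1125 CPM in suspension and 1313, 990 and 747 CPM in adherent libraries, which overlapped. The log2 ratio was -0.11 ± 0.23 (edgeR quasi-likelihood with Benjamini-Hochberg adjustment, adjusted p = 0.703), and by day it was -0.60, -0.25 and 0.59. Anxa1, a regulator of inflammation that is abundant in myeloid cells, was higher in suspension, with a log2 ratio of 1.64 ± 0.39 (adjusted p = 0.0123 by the same test). The annotation holds 2 processed pseudogenes, Gm12854 and Gm7665, that match a stretch of 297 bases of S100a11 at 99.0% and 98.7% identity. Neither pseudogene is among the genes counted. Reads that match such near copies can be lost in counting, so the S100a11 level is uncertain.

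S100a6 (ENSMUSG00000001025, chromosome 3, 90612882 to 90624181, plus strand), or calcyclin, a member of fibroblasts and epithelia that binds the Siah1 adaptor CacyBP, was lower in suspension. It had 1170, 843 and 1172 CPM in suspension and 4247, 3368 and 1702 CPM in adherent libraries. The fractions did not overlap, and the adherent value of day 6 lay nearest to suspension. The means were 1062 ± 189 CPM in suspension and 3106 ± 1292 CPM in adherent libraries (SD, n = 3 each), with a log2 ratio of -1.55 ± 0.34 (edgeR quasi-likelihood with Benjamini-Hochberg adjustment, adjusted p = 0.0094). Against a difference of at least 2-fold the same gene did not pass (adjusted p = 0.0937). S100a6 made up 31.5%, 25.3% and 30.3% of the counts of the 7 members other than the pair in suspension, against 63.1%, 60.8% and 48.0% in adherent libraries.

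The partner list was not divided by member. Cacybp, Anxa11 and Sugt1 are given here as partners of S100a6, not as a full set. Of all genes tested, 27.1% were higher and 29.7% lower. Cacybp had a log2 ratio of 0.43 ± 0.20 that did not pass (adjusted p = 0.112 with edgeR's quasi-likelihood fit and Benjamini-Hochberg adjustment). Anxa11, another annexin, had a log2 ratio of 1.50 ± 0.28 and Sugt1, a co-chaperone, one of -0.32 ± 0.09, both called.

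S100a16 (ENSMUSG00000074457, chromosome 3, 90537254 to 90543151, plus strand), a widely expressed member that has been linked to adipocyte differentiation, was far lower in suspension. It had 1.67, 0.739 and 0.277 CPM in suspension, from 69, 31 and 14 counts, and 67.5, 102 and 54.5 CPM in adherent libraries, from 2927, 4035 and 2339 counts. The lowest adherent library was far above the highest suspension one. The mean was 0.896 ± 0.710 CPM in suspension and 74.5 ± 24.3 CPM in adherent libraries (SD, n = 3 each), an 83.2-fold deficit in suspension. The log2 ratio was -6.40 ± 0.65 (edgeR quasi-likelihood with Benjamini-Hochberg adjustment, adjusted p = 0.000724), and by day it was -5.30, -7.02 and -7.40. Endothelial markers (8 of 8 lower in suspension), fibroblast markers (6 of 6 lower, 17.2 to 64.6 CPM in suspension) and epithelial markers (3 of 6 lower, 13.3 to 230 CPM in suspension) went the same way as S100a16 and S100a6. Their part in these differences was not tested. Of all genes tested, 29.7% were lower in suspension.

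S100a4 (ENSMUSG00000001020, chromosome 3, 90603771 to 90606045, plus strand), a regulator of non-muscle myosin that is widely used as a fibroblast marker and is also made by macrophages and T cells, did not pass the test between the fractions. It had 10.7, 6.60 and 11.7 CPM in suspension and 7.48, 6.50 and 8.36 CPM in adherent libraries. The ranges overlapped, and the log2 ratio was 0.38 ± 0.24 (edgeR quasi-likelihood with Benjamini-Hochberg adjustment, adjusted p = 0.226). Of its 584 exon bases, 302 (51.7%) are shared on the same strand with the annotated gene Gm42674, including 146 of the 306 bases of its last exon. Gm42674 had 0 counts in all 6 libraries. Reads that fall on shared bases cannot be given to 1 gene, so the counts assigned to S100a4 may fall short of its reads and its level is uncertain. From the partner list, Myh9, Ppfibp1 and Trp53 had log2 ratios of 0.40 ± 0.24, -2.09 ± 0.23 and -0.90 ± 0.15, and all but Myh9 passed the test. Of all genes tested, 27.1% were higher and 29.7% lower in suspension.

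Change over the 3 days was fitted as a straight slope per day. In the adherent fraction 2 of 9 members rose and 1 fell, against 7.75% of all genes that rose and 3.52% that fell. S100a9 rose by 1.16 ± 0.24 log2 units a day (edgeR quasi-likelihood with Benjamini-Hochberg adjustment, adjusted p = 0.0413), S100a1 rose by 0.72 ± 0.13 (adjusted p = 0.0323) and S100a11 changed by -0.41 ± 0.09 (adjusted p = 0.0424). S100a8 had a slope of 1.22 ± 0.28 (adjusted p = 0.0512) and S100a6 one of -0.66 ± 0.16 (adjusted p = 0.0599), neither of which passed. The remaining adherent slopes were -0.25 ± 0.10 for S100a10, 0.30 ± 0.12 for S100a13, 0.08 ± 0.21 for S100a4 and -0.15 ± 0.22 for S100a16.

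These adherent calls lay near the threshold. Without the adherent library of day 4 the slope of S100a9 was 0.50 (adjusted p = 0.456), and without that of day 6 it was 1.82 (adjusted p = 0.05003). Without either of these libraries the calls of S100a1 (adjusted p = 0.228 and 0.237) and S100a11 (adjusted p = 0.331 and 0.294) were lost as well. The calls of S100a9 and S100a11 were also lost without any 1 of the suspension libraries of days 4, 5 and 6 (adjusted p = 0.0668, 0.0689 and 0.0657 for S100a9, and 0.0519, 0.0535 and 0.0506 for S100a11). Without the adherent library of day 5, 6 members were called. Over all genes 1156 adherent slopes were called higher and 525 lower with all 6 libraries. Without 1 suspension library there were 300 to 348 and 108 to 134. Without the adherent library of day 4, 5 or 6 there were 233 and 121, 1900 and 999, and 217 and 70. In the same fraction monocyte and macrophage markers summed to 2694, 3471 and 7016 CPM on days 4, 5 and 6, with 7 of 12 markers called higher per day, and 4 of 13 neutrophil markers (Retnlg, Mmp8, Mmp9 and Csf3r) were called higher per day. Mast cell markers summed to 13.5, 69.6 and 179 CPM, with 1 of 5 called higher per day. Epithelial markers summed to 1329, 303 and 880 CPM, and 4 of 6 (Krt8, Krt18, Krt19 and Cdh1) were called lower per day, the direction of S100a11. The part of these cell types in the slopes was not tested.

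In suspension no member's slope passed, against 0.496% of all genes called in either direction, while 3 members had an unadjusted p under 0.05 and DESeq2's Wald test called 1. Over all genes DESeq2 called 185 suspension slopes higher and 601 lower. S100a9 had a slope of 0.86 ± 0.21 (edgeR quasi-likelihood with Benjamini-Hochberg adjustment, adjusted p = 0.151), S100a8 one of 0.72 ± 0.24 (adjusted p = 0.233) and S100a16 one of -1.27 ± 0.36 (adjusted p = 0.193). The slopes of S100a9 and S100a16 passed in each fit without 1 adherent library (adjusted p = 0.0336 to 0.0348 for S100a9 and 0.0121 to 0.0129 for S100a16). In these fits 168 to 174 of all genes were called higher and 341 to 371 lower, against 14 and 60 with all 6 libraries. The other suspension slopes lay between -0.12 for S100a10 and 0.19 for S100a11. Epithelial markers summed to 230, 34.9 and 13.3 CPM in suspension on days 4, 5 and 6, with 3 of 6 called lower per day, and 2 of 13 neutrophil markers, Ngp and Mmp9, were called higher per day. Their part in the slopes was not tested.

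A slope shared by both fractions was called for 0 of 9 members, against 0.0134% of all genes. At an unadjusted p under 0.05 there were 2 members, S100a8 and S100a9, and DESeq2 called the same 2. Over all 14912 genes DESeq2 called 729 higher and 726 lower. The share of all genes at an unadjusted p under 0.05 was not counted for any of the slopes. The shared slope was 0.93 ± 0.22 for S100a8 and 0.99 ± 0.18 for S100a9 (edgeR quasi-likelihood with Benjamini-Hochberg adjustment, adjusted p = 0.143 and 0.128). The difference of the slopes, suspension minus adherent, was called for 0 of 9 members, against 0.516% of all genes. At an unadjusted p under 0.05 there were 4 members. DESeq2 called 4 members, and over all genes it called 206 higher and 815 lower. By edgeR's test the difference was 0.60 ± 0.12 for S100a11 (adjusted p = 0.0943), -0.69 ± 0.19 for S100a1 (adjusted p = 0.156), 0.66 ± 0.22 for S100a6 (adjusted p = 0.195) and -1.11 ± 0.43 for S100a16 (adjusted p = 0.242). A day trend that differs between the fractions is therefore not shown for any member by edgeR's main fit, with all 6 libraries and the filter on low counts. With no filter edgeR called 3 members, and over all 22019 genes it called 159 higher and 847 lower. Without the adherent library of day 5 or of day 6 it called 1 member. Over all genes it called 148 higher and 711 lower without day 5, and 2 higher and 83 lower without day 6. The main fit called 8 higher and 69 lower.

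**Figure D4:**
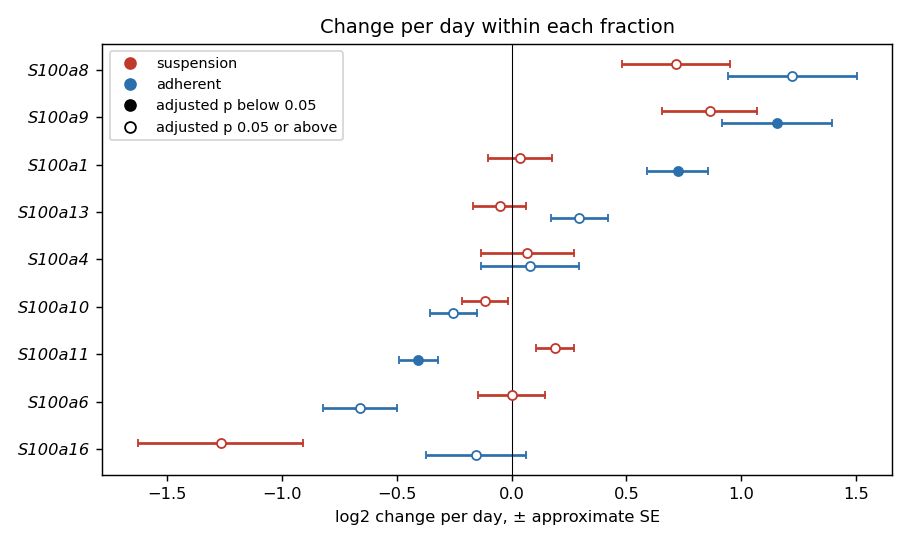
Fitted log2 change per day of the 9 S100 genes in suspension (red, upper point of each row) and adherent (blue, lower point) with approximate SE, filled where the adjusted p was below 0.05. The filled points are the adherent slopes of S100a9 and S100a1, above 0, and of S100a11, below 0.

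Likeness of pattern was measured as the root mean square distance between centred log2 CPM values over the 6 libraries, among 5909 tested genes with a mean of at least 20 CPM (5910 for S100a4). S100a8 and S100a9 were each other's nearest gene at 0.11, where the median distance of all candidates was 3.16 from S100a8 and 3.12 from S100a9. Next came BC100530 (0.24) and Cd177 (0.26), a surface protein of neutrophils, for S100a8, and BC100530 (0.18) and Ly6c2 (0.18), a surface protein of monocytes and myeloid precursors, for S100a9. BC100530 had a mean of 2103 CPM over the libraries.

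S100a1 was nearest to Lipa (0.12) and Psap (0.12), which encode the lysosomal acid lipase and the precursor of the saposins, and to Epas1 (0.13), a hypoxia-inducible transcription factor. S100a13 was nearest to Itm2b (0.08), Glmp (0.09), a lysosomal membrane protein, and Hmox2 (0.10), a haem oxygenase. S100a16 was nearest to Mest (0.33), Col4a1 (0.35) and Col4a2 (0.37), the last 2 of which are collagen chains of basement membrane. S100a6 was nearest to Dusp6 (0.16), a phosphatase of ERK, to Itga5 (0.19), the fibronectin receptor's alpha chain, and to Pdlim7 (0.20). S100a10 was nearest to Fh1, Gtf3c6 and Ppia (0.06 to 0.08), S100a11 to Slc25a24 and Ampd3 (0.07 and 0.12), and S100a4 to the mitochondrial genes Ndufb8, Ndufb2 and Atp5l (0.13 to 0.15). For these 3 members and S100a13 the median distance of all candidates was itself only 0.36 to 0.42. The 6 libraries fall mainly into the 2 fractions, so a short distance for S100a8, S100a9 or S100a16 rests largely on that split.

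Along the chromosome, members called in opposite directions lay close together, where 27.1% of all genes tested were higher and 29.7% lower. All 9 members are on mouse chromosome 3. S100a1, S100a13, S100a16, S100a4, S100a6, S100a8 and S100a9 stand in this order within one stretch, and S100a11 and S100a10 lie 2825 kb further on. S100a16, which was lower in suspension, starts 12672 bases after the end of S100a13, which was higher, and the listed gene between them, S100a14, was lower, with a log2 ratio of -3.50 ± 1.20 (edgeR quasi-likelihood with Benjamini-Hochberg adjustment, adjusted p = 0.0443). S100a14, an epithelial member, had 3.08, 1.12 and 0.0396 CPM in suspension and 31.5, 9.77 and 6.20 CPM in adherent libraries. Its suspension value of day 6 rests on 2 counts. The call of S100a13 held in only 8 of 16 alternative runs. Chtop, the tested gene that lies 1535 bases beyond the end of S100a1, had means of 46.2 CPM in suspension and 43.7 CPM in adherent libraries (log2 ratio 0.08 ± 0.09, adjusted p = 0.494 by the same test).

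Of 8 other S100 genes that were listed, 7 were in the tables and 3 had enough counts to test. Besides S100a14, these were S100b, a glial member, with a log2 ratio of -0.83 ± 0.31 (edgeR quasi-likelihood with Benjamini-Hochberg adjustment, adjusted p = 0.0606), and S100g, a calcium buffer of gut epithelium, with -1.32 ± 1.02 (adjusted p = 0.307). S100a3, S100a5, S100a7a and S100z had at most 0.554 CPM in any library. S100a7l2 was not analysed here.

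**Figure D5:**
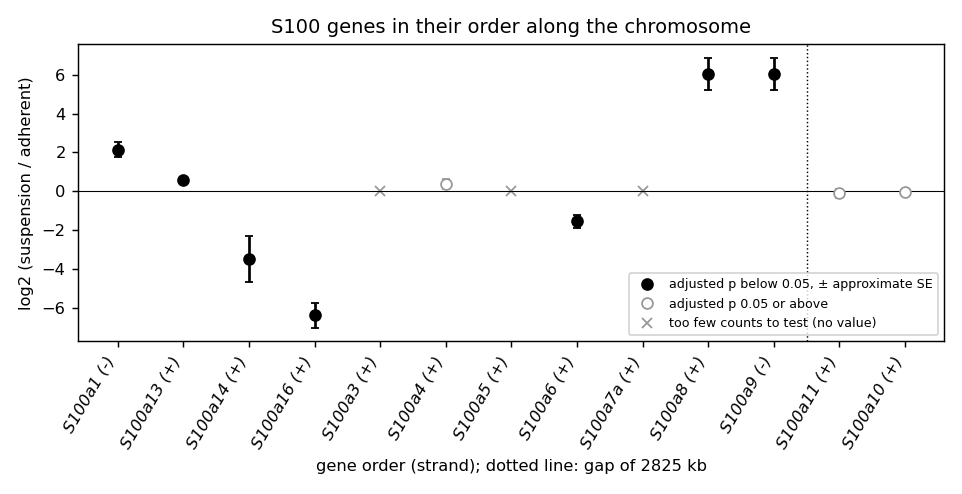
Log2 ratio of suspension over adherent with approximate SE for S100 genes in their order along chromosome 3 (strand in brackets), filled where the adjusted p was below 0.05, with crosses on the zero line for genes too low to test, which have no value. The sign changes several times along the row, with values of 2.13 for S100a1, -6.40 for S100a16 and 6.06 for S100a9, and the dotted line marks the 2825 kb gap before S100a11 and S100a10.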

How the data were processed

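Gene counts of 6 whole 10x 3' v3 libraries were analysed. Per the submitters' processing notes bcl2fastq, Cell Ranger and STARsolo were used on mm10, with versions and annotation not given in the sources used here. Each deposited table held counts of reads by gene (31053 identifiers, 4 summary lines, no cell axis) on either, the sense and the antisense strand, and the sense counts were used. Names and loci were taken from GENCODE M21, which held 30934 identifiers; near copies were found with blastn 2.17.0 (at least 60 bases at 95% identity).

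edgeR 4.0.16 (limma 3.58.1, R 4.3.3) filtered genes with filterByExpr, which kept 14912 of 22019 genes with any count, scaled libraries by TMM and ran quasi-likelihood tests with Benjamini-Hochberg adjustment over all genes kept (threshold 0.05). Suspension was tested against adherent (4 residual degrees of freedom), then a day slope shared by the fractions (3), and the slope of each fraction and their difference (2). The ± after a log2 value is an approximate standard error, its size over the square root of F. Within a fraction the 3 days were taken as its libraries. Because the labels give both fractions a shared collection day, a fit with day as a block was run. Deviations of same-day libraries correlated over 14912 genes, which are not independent, at 0.318, 0.095 and 0.253, and those of different days between -0.285 and 0.022.

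The members and lists were chosen with earlier results of these data known. All members are described. Of partners and other S100 genes, the 8 called ones with the largest mean CPM and any partner of a described member are named, with the 3 genes nearest to each member (no Gm or Rik symbols) and tested neighbours within 20 kb; a few genes that this rule names are not reported here. Alternatives were other strands, scalings, filters, DESeq2 1.42.0, thinned counts, a 2-fold threshold, the day block and each library left out. The scripts were tested on simulated data.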

Additional observations from a re-analysis of the deposited data

Results flagged for a closer look

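Reads on the strand opposite to a gene were not used in the comparisons. In CPM, those over S100a8, S100a9, S100a1, S100a10 and S100a13 were higher in every suspension library than in every adherent one. As a share of the gene's sense reads they came to 0.0376% in suspension and 0.0248% in adherent libraries for S100a8, and to 0.0837% in suspension and 0.0961% in adherent libraries for S100a9. For S100a1 the share was 0.439% in suspension and 0.523% in adherent libraries. For S100a10 it was 0.347% in suspension and 0.168% in adherent libraries, and for S100a13 it was 0.0532% in suspension and 0.0293% in adherent libraries. The S100a13 values rest on 7, 4 and 6 counts in suspension and 0, 2 and 4 counts in adherent libraries, near the floor of 3 counts, and the nearest libraries have equal counts and differ by scaling alone. The source of these reads was not tested. In the main fit no member had a slope difference between the fractions past the threshold, and groups of 3 libraries were not tested for outliers.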

How the results depend on the processing

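The directions of the 6 members called between the fractions held under every alternative run, and S100a8, S100a9, S100a1 and S100a16 were called in all 16 (log2 ratio 5.46 to 6.52, 5.35 to 6.55, 1.85 to 2.58 and -7.26 to -5.97). S100a6 failed the test against a 2-fold difference, which left 1 member lower in place of 2. S100a13 was called in 8 of 16. With the collection day as a replicate block its adjusted p was 0.0601, and the block changed no other member call between the fractions. The adherent slope was called for 5 members with library totals without TMM, with DESeq2's Wald test, with no filter and with at least 10 CPM in 3 libraries, against 3, and for 1 to 6 with 1 library left out. S100a8 was among the added calls in each of these 4 settings. Over all genes the main fit called 1156 adherent slopes higher and 525 lower. In the 4 settings these were 834 and 566, 1541 and 891, 1739 and 908 of 22019 genes, and 941 and 639 of 8685 genes. With 1 library left out they ranged from 217 and 70 (without adherent day 6) to 1900 and 999 (without adherent day 5). The suspension slope was called for 1 member by DESeq2, for 3 with no filter and for 0 to 2 with 1 library left out, against 0. Over all genes the main fit called 14 suspension slopes higher and 60 lower. DESeq2 called 185 and 601, and the fit with no filter 204 and 604. With 1 library left out there were 0 to 174 higher and 0 to 371 lower. The slope difference was called for 4 members by DESeq2, for 3 with no filter and for 0 to 1 with 1 library left out, against 0. Over all genes the main fit called 8 slope differences higher and 69 lower. DESeq2 called 206 and 815, and the fit with no filter 159 and 847. With 1 library left out there were 0 to 148 higher and 0 to 711 lower. The common slope was called for 2 members by DESeq2, against 0. Over all genes DESeq2 called 729 common slopes higher and 726 lower, against 2 and 0 in the main fit. The cause of these changes was not tested. S100a4, as counted, did not pass the filter of 10 CPM in 3 libraries and has no value there. With 2 residual degrees of freedom the slopes are the least certain values, and the adherent slopes of S100a9 (0.50 to 1.82) depended on single libraries. Where a left-out library leaves a fraction 2 days, its slope uses the spread of the fit over both fractions.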
